A study of Mus musculus with 8 samples.

Results

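Mitochondrial carrier and import genes were examined in obstructed mouse kidney with and without inhibition of miR-214. They were taken as every gene whose array symbol begins with Slc25a, Timm or Tomm followed by a number, which gave 68 of the 19057 named genes on the array, 46 in the Slc25a family, 15 in the Timm family and 7 in the Tomm family. RNA came from whole kidneys of C57/bk mice, male adults, in which unilateral ureteral obstruction (UUO) had lasted 7 days. Closing off 1 ureter stops urine flow from that kidney and injures its tubules. The treated group had received anti-miR-214, an antisense oligonucleotide that binds the microRNA miR-214, and its comparison group a control antimiR. Each group held 4 animals, each animal had 1 Illumina bead array, and all 8 kidneys were obstructed. Kidneys without obstruction were not analysed here, and the labels give no dose, route or time of injection. Of the 68 genes, 52 had a probe detected on at least 4 of 8 arrays and were tested. At a limma adjusted p under 0.05, 8 of the 52 genes rose and 6 fell in anti-miR-214 kidneys, and 38 did not pass. That is 26.9% of the tested members, beside 22.3% of all named genes tested in the same fit, so the share called was near the background.

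Mitochondria make few of their own proteins and bring the rest in from the cytosol. The translocase of the outer membrane, built from Tomm proteins, receives precursors and passes them through a channel. Timm proteins form the translocases of the inner membrane, of which TIM23 takes proteins with a presequence to the matrix and TIM22 inserts carriers, with small Tim chaperones ferrying carriers across the space between the membranes. The inserted carriers are largely the Slc25a proteins, which exchange nucleotides, phosphate, carboxylates, amino acids, cofactors and metals between cytosol and matrix. The kidney's proximal tubule is rich in mitochondria and depends on them for the energy of solute reabsorption.

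The microRNA that anti-miR-214 binds is shown because the groups differed in the oligonucleotide given. Its level in these kidneys was not analysed here. The labels name no arm, and the sequence printed is that of the 3p arm, in RefSeq at chr1:162223438-162223459 on the plus strand of GRCm38.p6. Capitals mark the seed, bases 2 to 8.
mmu-miR-214-3p: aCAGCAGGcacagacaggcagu

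Values below are log2 intensities after background correction and quantile normalisation, a change is the anti-miR-214 mean minus the control mean, and each gene stands on its brightest tested probe, averaged over all 8 arrays. Of 45281 probes, 18601 were tested. The limma fit called 25.6% of these probes, 11.8% higher and 13.8% lower. Among the 10734 named genes with a tested probe, 12.3% were called higher and 9.93% lower on the representing probe. Fewer probes were detected on anti-miR-214 arrays, 37.2% to 39.2%, than on control arrays, 41.8% to 43.1% (two-sided exact permutation p = 0.0286, which is the smallest that 4 against 4 arrays can give). Replicates 1 to 3 of both groups lay on 1 slide and replicate 4 of both on another. Some fibroblast and macrophage markers fell in anti-miR-214 kidneys, while 12 of 13 proximal tubule markers did not pass. Of 9 tested fibroblast and myofibroblast markers 8 fell and 0 rose, with a summed intensity of 12400 to 20300 in anti-miR-214 kidneys, against 20100 to 30500 in control kidneys. Of 11 macrophage markers 4 fell and 0 rose, with a sum of 8950 to 15900 in anti-miR-214 kidneys, against 19400 to 22400 in control kidneys. Of 13 proximal tubule markers 1 rose, the transcription factor Hnf4a, and 0 fell, with sums of 54000 to 97600 in anti-miR-214 kidneys and 45400 to 78000 in control kidneys. In whole kidney, fewer cells of a type and less RNA per cell cannot be told apart, and the part of these shifts in the changes below was not tested.

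In all 3 families more genes lay above 0 than below it with quantile normalisation, whereas the medians of Slc25a and Tomm genes turned below 0 when arrays were scaled to a common median. Of the 33 tested Slc25a genes, 5 rose, 5 fell and 23 did not pass (30.3% called). Of the 12 Timm genes, 2 rose, 1 fell and 9 did not pass (25% called). Of the 7 Tomm genes, 1 rose, 0 fell and 6 did not pass (14.3% called), with the fit's own background at 22.3%. The groups did not overlap in 19 of the 52 genes, beside 2928 of 10734 named genes (27.3%). The median change was 0.11 over Slc25a genes, 0.27 over Timm genes and 0.20 over Tomm genes, beside 0.09 over all named genes, and the first and last of these turned to -0.05 and -0.11 with median scaling. Changes lay above 0 in 21 of 33 Slc25a, 11 of 12 Timm and 7 of 7 Tomm genes, while 59.5% of all named genes lay above 0. Carriers had the widest range, from -0.86 for Slc25a30 to 0.79 for Slc25a34, a gene that did not pass.

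**Figure D1:**
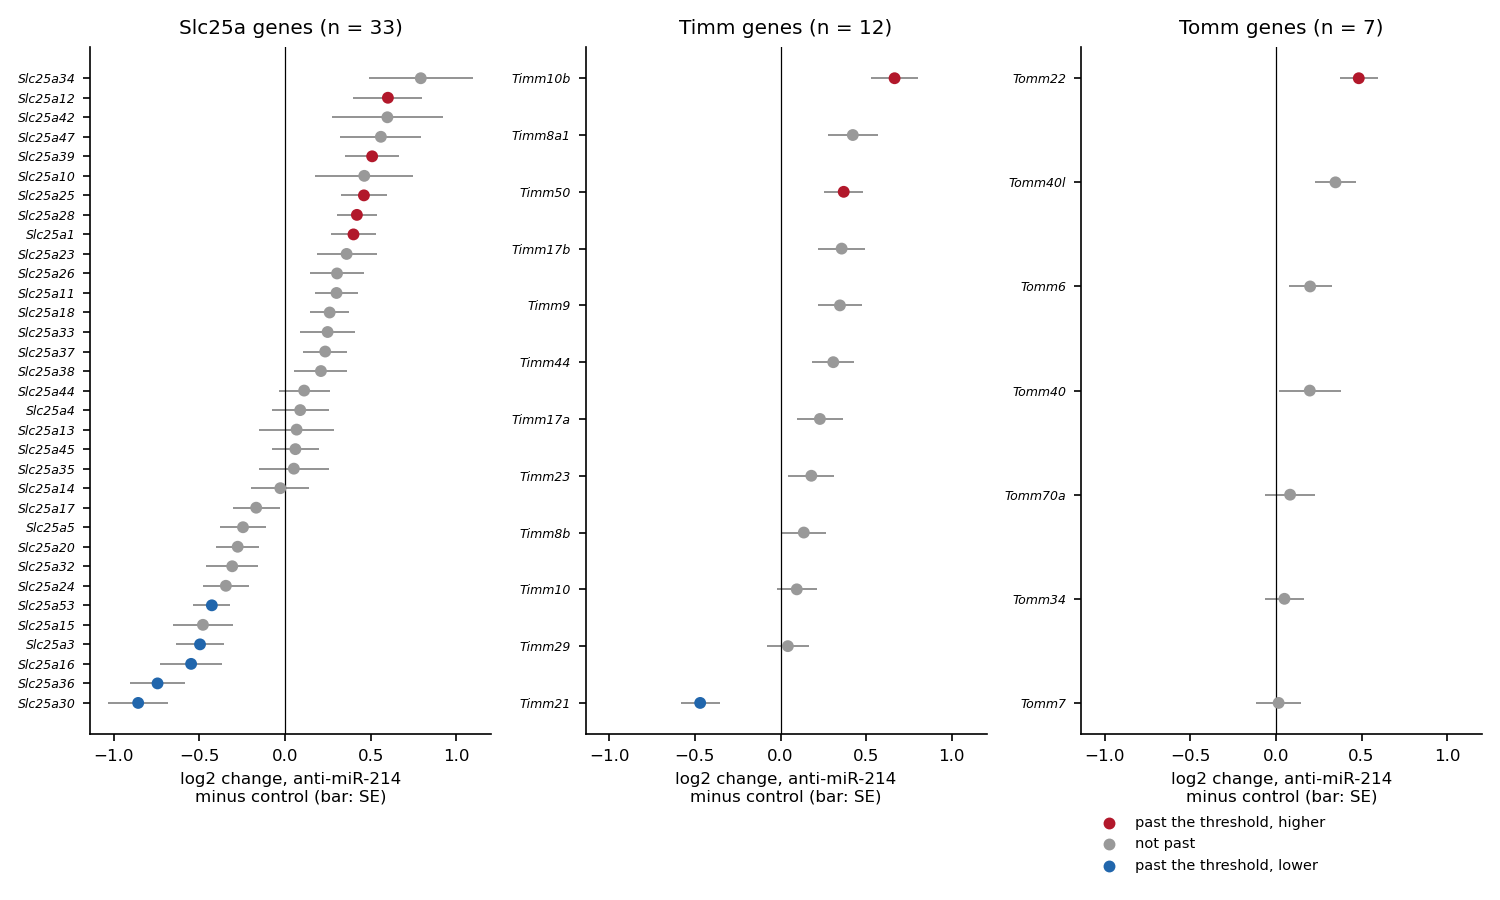
Log2 change, anti-miR-214 minus control antimiR, of each tested Slc25a, Timm and Tomm gene (points, coloured by call) with its standard error (bars). All 7 Tomm genes and 11 of 12 Timm genes lie at or right of 0, while Slc25a genes spread from -0.86 to 0.79; with median scaling the Slc25a and Tomm medians turned below 0.

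Per array, the Timm family separated by group. The median deviation of its 12 genes from their control means was 0.21, 0.13, 0.35 and 0.30 in anti-miR-214 kidneys, against -0.11, 0.02, 0.02 and 0.11 in control kidneys. All 4 anti-miR-214 arrays lay above all 4 control arrays, although the lowest of them, replicate 2, stood close to control replicate 4. A gap between groups was not particular to Timm genes. The medians over all named genes were 0.05, 0.08, 0.10 and 0.07 in anti-miR-214 kidneys. In control kidneys they were 0.03, 0.01, -0.01 and -0.01, also without overlap. The Slc25a medians were 0.00, 0.07, 0.21 and 0.34 in anti-miR-214 kidneys, against -0.15, -0.03, 0.11 and 0.15 in control kidneys, and these overlapped. In the Tomm family the medians were 0.19, 0.16, -0.03 and 0.46 in anti-miR-214 kidneys, against -0.03, 0.06, 0.04 and 0.00 in control kidneys, where anti-miR-214 replicate 3 was the lowest of all 8 arrays. Within slide 1 the median changes were 0.09 for Slc25a, 0.31 for Timm and 0.09 for Tomm genes, beside 0.08 for all named genes. On slide 2, with 1 array a group and no test, they were 0.21 for Slc25a, 0.19 for Timm and 0.54 for Tomm genes. All named genes had 0.09 there. With the slide as a block, 6 Slc25a, 4 Timm and 1 Tomm genes rose, and 5 Slc25a, 1 Timm and 0 Tomm genes fell. That fit called 28.8% of all tested probes, beside 25.6% without the block.

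**Figure D2:**
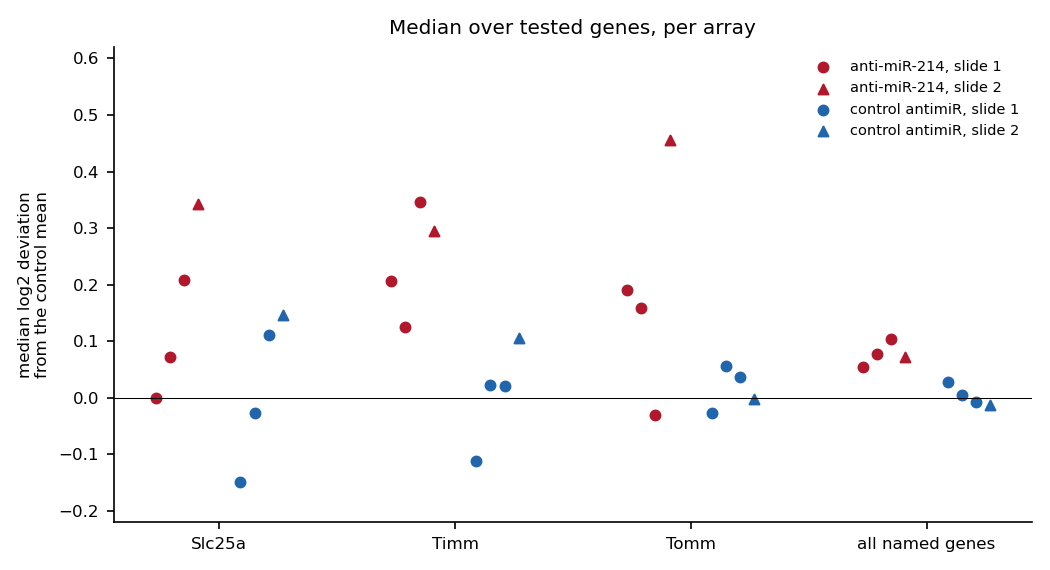
Median over the tested genes of each family, and over all named genes, of the log2 deviation from the control mean, per array (red anti-miR-214, blue control antimiR; circles slide 1, triangles slide 2). The Timm medians lie between 0.13 and 0.35 in anti-miR-214 kidneys and between -0.11 and 0.11 in control kidneys, with no overlap. The medians over all named genes do not overlap either, at 0.05 to 0.10 in anti-miR-214 and -0.01 to 0.03 in control kidneys.

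These directions depended on the scaling between arrays. When arrays were scaled to a common median over all probes in place of quantile normalisation, the median change of all tested probes moved to -0.15, beside 0.05 here. The family medians then stood at -0.05 for Slc25a and -0.11 for Tomm genes, below 0, and at 0.14 for Timm genes, above 0. Over the brightest probes of all named genes, the like set, the median there was -0.11. When arrays were scaled over the tested probes alone, a choice made after seeing the data, the medians were 0.24 for Slc25a, 0.43 for Timm and 0.18 for Tomm genes, beside 0.17 for all named genes. No test of a family against other genes was made. The share of called probes that were higher was 46.1% here, 10.9% with the first scaling and 60.1% with the second. Of the 14 called genes, 14 kept their direction under every alternative, slides included, and 7 stayed past the threshold with scaling over all probes, namely Slc25a3, Slc25a16, Slc25a30, Slc25a36, Slc25a53, Timm10b and Timm21. Of these, Timm10b alone had risen, and that scaling moved the median of all tested probes below 0. With scaling over the tested probes, Slc25a3 had -0.225 (limma adjusted p = 0.281) and Slc25a16 -0.436 (limma adjusted p = 0.099), and both lost their calls. All alternatives reused the arrays that gave the calls, so kept directions, here and below, are a description.

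Single arrays decided many of the calls, in carriers and over all tested probes. The share of all tested probes called, 25.6% here, was 15.9% without anti-miR-214 replicate 3 and 18.6% without anti-miR-214 replicate 4. It was 25.1% without anti-miR-214 replicate 1, 25.9% without anti-miR-214 replicate 2 and 16.3% to 20.6% without a control array. The count of Slc25a genes that rose, 5 here, was 0 without anti-miR-214 replicate 3, anti-miR-214 replicate 4 or control antimiR replicate 2, 1 without control antimiR replicate 1, 2 without control antimiR replicate 3 and 3 without control antimiR replicate 4. The count that fell, also 5, was 3 without anti-miR-214 replicate 2 or 3 or control antimiR replicate 3 or 4. For Timm genes the count that rose was 1 without anti-miR-214 replicate 1 or 3 or control antimiR replicate 1, 2 or 3, and 4 without anti-miR-214 replicate 2. Of the 14 called genes, 6 passed whichever array was left out, namely Slc25a30, Slc25a36, Slc25a53, Timm10b, Timm21 and Tomm22. Without anti-miR-214 replicates 3 and 4 together, Slc25a36 and Timm10b were the 2 that passed, at 7.52% of all tested probes called, and all 14 kept their direction.

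**Figure D3:**
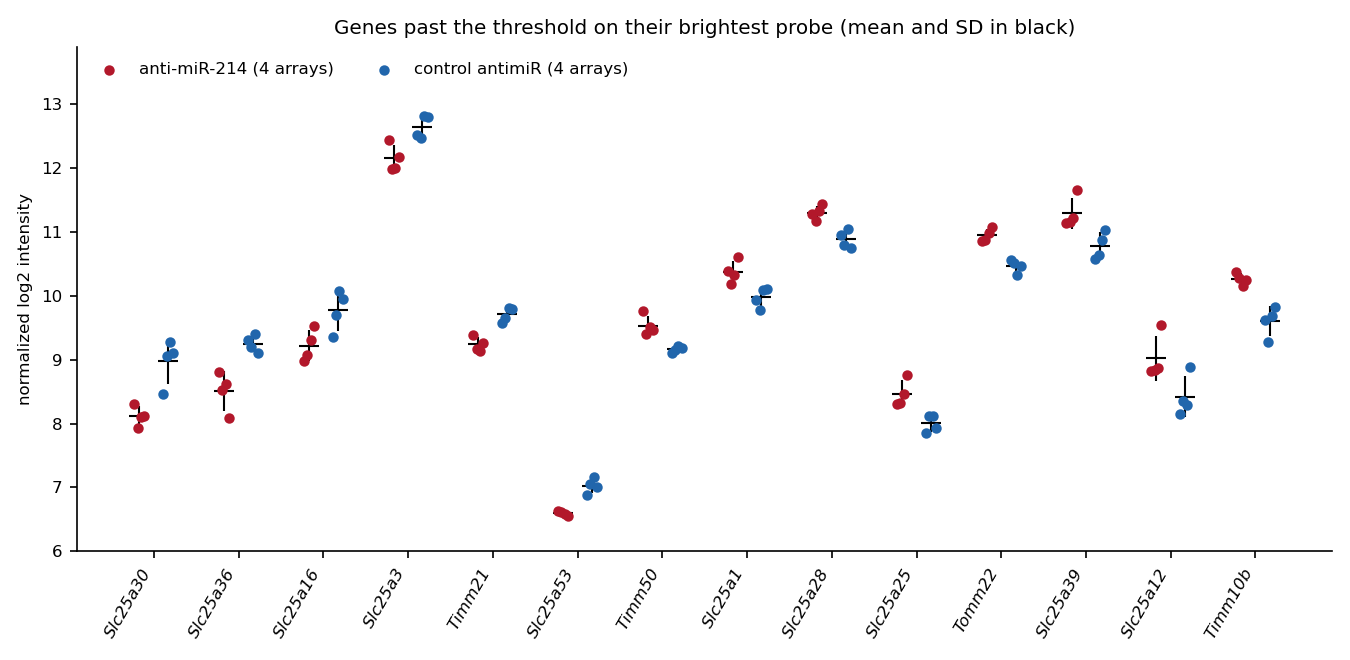
Normalised log2 intensity of the 14 called genes on each array (red anti-miR-214, left; blue control antimiR, right), with mean and SD in black, ordered by change. The groups are apart in every gene except Slc25a12 and Slc25a16, where the highest or lowest array of one group reaches into the other.

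At the outer membrane, Tomm22, the central receptor that gathers precursors at the translocase, rose. Its values were 10.86, 10.88, 10.98 and 11.08 in anti-miR-214 kidneys, against 10.56, 10.52, 10.32 and 10.46 in control kidneys. Every anti-miR-214 kidney was above every control kidney, a change of 0.48 ± 0.11 (SE, limma adjusted p = 0.0115), or 1.4-fold. The gene passed whichever single array was left out, with log2 changes of 0.44 to 0.51 and adjusted p of 0.0156 to 0.0353 over the 8 omissions. Tomm70a, the receptor for carrier precursors, had a change of 0.08 ± 0.15 (SE, limma adjusted p = 0.699).

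Tomm40, the channel itself, did not pass. It had values of 6.98, 6.99, 6.52 and 7.48 in anti-miR-214 kidneys, against 6.77, 6.67, 6.83 and 6.90 in control kidneys. Anti-miR-214 replicate 3 was the lowest of the 8 arrays and replicate 4 the highest, so the groups overlapped, and the change was 0.20 ± 0.18 (SE, limma adjusted p = 0.433). Tomm40 also turned to -0.13 with scaling over all probes. Tomm40l, a paralogue of the channel, gave 10.54, 10.57, 10.62 and 10.72 in anti-miR-214 kidneys, against 10.32, 10.39, 10.32 and 10.01 in control kidneys on its brighter probe. These groups did not overlap, yet the change of 0.35 ± 0.12 (SE, limma adjusted p = 0.0539) missed the threshold. A dimmer Tomm40l probe gave 8.86, 8.36, 8.81 and 8.87 in anti-miR-214 kidneys, against 8.07, 8.26, 8.19 and 7.45 in control kidneys. It rose by 0.73 ± 0.19 (SE, limma adjusted p = 0.0196), with no overlap and with anti-miR-214 replicate 2 apart below the other 3, and it lost its call without anti-miR-214 replicate 3, with log2 changes of 0.55 to 0.86 and adjusted p of 0.0119 to 0.0525 over the 8 omissions. The small channel subunits Tomm6 and Tomm7 had changes of 0.20 and 0.02, and the cytosolic Tomm34 had 0.05, none of them past the threshold. Tomm20 and Tomm5 were not analysed here.

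Among TIM23 genes, 1 of 6 rose and 1 fell, beside 12.3% of all named genes called higher and 9.93% lower. Timm50, the receptor that takes presequence proteins from the outer membrane channel, had values of 9.76, 9.40, 9.51 and 9.47 in anti-miR-214 kidneys, against 9.11, 9.15, 9.22 and 9.18 in control kidneys. All anti-miR-214 kidneys were above all control kidneys, and Timm50 rose by 0.37 ± 0.12 (SE, limma adjusted p = 0.0376). It kept its call only without anti-miR-214 replicate 2, with log2 changes of 0.29 to 0.41 and adjusted p of 0.038 to 0.0865 over the 8 omissions. Timm21, a subunit that links TIM23 to the outer membrane translocase and to respiratory chain assembly, fell. Its brightest probe read 9.39, 9.17, 9.13 and 9.27 in anti-miR-214 kidneys, against 9.58, 9.65, 9.80 and 9.80 in control kidneys. No anti-miR-214 kidney reached any control kidney, with a change of -0.47 ± 0.11 (SE, limma adjusted p = 0.0146), 1.38-fold lower. The second Timm21 probe gave 8.21, 8.01, 8.04 and 8.05 in anti-miR-214 kidneys, against 8.34, 8.56, 8.32 and 8.60 in control kidneys. The third gave 7.48, 6.73, 6.64 and 6.50 in anti-miR-214 kidneys, against 7.83, 7.96, 7.91 and 7.97 in control kidneys. All 3 probes fell with no overlap between groups, with changes of -0.38 ± 0.12 (SE, limma adjusted p = 0.0379) on the second and -1.08 ± 0.19 (SE, limma adjusted p = 0.00374) on the third. The brightest and the third passed whichever single array was left out, and the second kept its call only without anti-miR-214 replicate 1 or control antimiR replicate 1 or 3, with log2 changes of -0.42 to -0.33 and adjusted p of 0.0372 to 0.104 over the 8 omissions.

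The channel-forming TIM23 genes did not pass. Timm17a gave 11.48, 11.62, 11.66 and 11.77 in anti-miR-214 kidneys, against 11.08, 11.59, 11.40 and 11.54 in control kidneys. Control replicate 1 was the lowest array, the groups overlapped, and the change was 0.23 ± 0.14 (SE, limma adjusted p = 0.23). Timm23 was detected on 4 of 8 arrays, just inside the filter, and gave 5.86, 5.70, 6.06 and 5.51 in anti-miR-214 kidneys, against 5.51, 5.63, 5.57 and 5.70 in control kidneys. These groups overlapped too, with a change of 0.18 ± 0.14 (SE, limma adjusted p = 0.342), which was -0.19 on slide 2. Timm17b had a change of 0.36 ± 0.14 (SE, limma adjusted p = 0.0805). Timm44, which holds the import motor's heat shock protein at the channel, had 0.31 and 0.39 on probes that did not overlap between groups and -0.06 on the dimmest, which did, with limma adjusted p of 0.0874, 0.0505 and 0.764.

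In the carrier insertion branch, Timm10b, the small Tim protein bound to the TIM22 complex, rose. Its brightest probe gave 10.37, 10.28, 10.15 and 10.25 in anti-miR-214 kidneys, against 9.63, 9.27, 9.68 and 9.82 in control kidneys. The lowest anti-miR-214 kidney, replicate 3, was above the highest control kidney, replicate 4, and the change was 0.67 ± 0.14 (SE, limma adjusted p = 0.00686), 1.59-fold. The gene passed whichever single array was left out, with log2 changes of 0.56 to 0.74 and adjusted p of 0.00913 to 0.0198 over the 8 omissions. Its other probes had changes of 0.30 ± 0.11 (SE, limma adjusted p = 0.0709) and 0.18 ± 0.15 (SE, limma adjusted p = 0.396), in the same direction and not past the threshold. Timm29, another TIM22 subunit, had a change of 0.04. None of the 4 tested small Tim chaperones passed, at 0.42 for Timm8a1, 0.35 for Timm9, 0.14 for Timm8b and 0.10 for Timm10. Timm8a1 came closest, at a limma adjusted p of 0.0553. Timm9 did not overlap between groups on its brightest probe but had -0.37 on its dimmest.

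The promoters of Timm10b, Timm50 and Tomm22 are shown because these were the 3 import genes called higher on the brightest probe; with scaling over all probes Timm10b alone kept its call. Each window has 250 bases before and 50 after the RefSeq start of GRCm38.p6. Capitals mark CCGGAAG, the core bound by ETS factors such as GABP, or AAGATGG, a core bound by YY1, on either strand. Timm10b lies at chr7:105640195-105640494 on the plus strand, Timm50 at chr7:28311997-28312296 on the minus strand and Tomm22 at chr15:79670618-79670917 on the plus strand.
Timm10b: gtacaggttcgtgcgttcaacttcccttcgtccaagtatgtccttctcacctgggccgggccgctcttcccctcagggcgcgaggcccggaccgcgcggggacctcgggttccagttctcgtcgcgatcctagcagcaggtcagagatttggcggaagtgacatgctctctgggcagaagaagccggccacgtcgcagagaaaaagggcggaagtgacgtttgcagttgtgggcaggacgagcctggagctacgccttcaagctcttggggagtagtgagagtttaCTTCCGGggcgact
Timm50: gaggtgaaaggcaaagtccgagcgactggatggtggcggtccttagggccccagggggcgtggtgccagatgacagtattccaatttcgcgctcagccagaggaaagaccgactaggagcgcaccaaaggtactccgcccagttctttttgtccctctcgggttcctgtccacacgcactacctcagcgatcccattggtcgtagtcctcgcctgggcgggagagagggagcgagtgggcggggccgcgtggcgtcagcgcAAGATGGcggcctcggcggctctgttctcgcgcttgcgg
Tomm22: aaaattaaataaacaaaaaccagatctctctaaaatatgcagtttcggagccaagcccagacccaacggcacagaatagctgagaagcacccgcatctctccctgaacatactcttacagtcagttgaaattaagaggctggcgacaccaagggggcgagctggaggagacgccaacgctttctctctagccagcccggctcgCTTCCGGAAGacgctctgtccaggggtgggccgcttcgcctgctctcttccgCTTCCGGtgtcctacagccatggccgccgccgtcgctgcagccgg

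CCGGAAG or its reverse complement occurred in the windows of Timm10b and Tomm22, and in Tomm22 both strands' forms overlap in 1 stretch. It was found in 14 of the 44 tested members that matched a RefSeq window (31.8%), in 18.9% of the 8697 tested named genes that matched and in 8.86% of all 32851 windows. Of the members that rose 3 of 8 held it, and of those that fell with a window 1 of 5, Slc25a3. AAGATGG was found in 4 of 44 members (9.09%), beside 8.27% of tested genes and 6.34% of all windows. The core GCATGCG, bound by NRF1, was found in 0 of 44 members, beside 6.9% of tested genes and 3.58% of all windows. Each motif was searched as these 7 letters on both strands, CCGGAAG and AAGATGG can share the letters AAG, and a match is a description of the letters only.

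Of the carboxylate and fatty acid carriers, 1 of 4 rose and 0 fell, beside 12.3% of all named genes called higher and 9.93% lower. Slc25a1, the citrate carrier that supplies cytosolic acetyl units, gave 10.39, 10.19, 10.32 and 10.61 in anti-miR-214 kidneys, against 9.94, 9.78, 10.09 and 10.10 in control kidneys. Every anti-miR-214 kidney was above every control kidney, by less than the spread within a group at the closest pair, and the change was 0.40 ± 0.13 (SE, limma adjusted p = 0.0444). Slc25a1 kept its call only without anti-miR-214 replicate 2, with log2 changes of 0.32 to 0.46 and adjusted p of 0.0363 to 0.125 over the 8 omissions, and its dimmer probe had a change of 0.18 with overlap. Slc25a10, the dicarboxylate carrier, had a change of 0.46 ± 0.29 (SE, limma adjusted p = 0.251), with anti-miR-214 replicate 4 the highest array.

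Slc25a11, the oxoglutarate and malate carrier, had probes that disagreed. The brightest gave 10.18, 10.23, 10.19 and 10.52 in anti-miR-214 kidneys, against 9.81, 9.98, 10.19 and 9.94 in control kidneys. Here control replicate 3 met the lowest anti-miR-214 arrays and the change was 0.30 ± 0.13 (SE, limma adjusted p = 0.106), with 0.43 on the next probe. The dimmest gave 6.50, 5.90, 5.23 and 5.72 in anti-miR-214 kidneys, against 7.08, 7.06, 6.98 and 7.20 in control kidneys. On that probe all anti-miR-214 arrays were lower, with a change of -1.25. It was detected on 2 of 4 anti-miR-214 and 4 of 4 control arrays, so it passed the detection filter through the group where it was high, and the value is a description. Slc25a20, the carnitine and acylcarnitine carrier of fatty acid oxidation, had a brightest probe at 10.47, 10.47, 10.31 and 10.39 in anti-miR-214 kidneys, against 10.51, 10.84, 10.53 and 10.86 in control kidneys. The anti-miR-214 arrays were lower without overlap, but the change of -0.28 ± 0.12 (SE, limma adjusted p = 0.122) did not pass. Its dim probe gave 6.38, 6.17, 5.46 and 5.79 in anti-miR-214 kidneys, against 7.04, 7.26, 7.32 and 7.14 in control kidneys. The change there was -1.24, likewise a description, since this probe was also detected on 2 anti-miR-214 and 4 control arrays.

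Of the amino acid carriers, 1 of 6 rose, beside 12.3% of all named genes. Slc25a12 (aralar), the aspartate and glutamate carrier of the malate-aspartate shuttle, gave 8.82, 8.85, 8.87 and 9.54 in anti-miR-214 kidneys, against 8.16, 8.35, 8.29 and 8.88 in control kidneys. Replicate 4 was the highest array in each group, and the control one exceeded 3 anti-miR-214 arrays, so the groups overlapped. The change was 0.60 ± 0.20 (SE, limma adjusted p = 0.0495), and it kept its call only without anti-miR-214 replicate 1 or control antimiR replicate 4, with log2 changes of 0.42 to 0.76 and adjusted p of 0.0241 to 0.117 over the 8 omissions. Replicate 4 was the slide 2 array of each group. On slide 1 alone the Slc25a12 groups did not overlap, with a change of 0.58 (limma adjusted p = 0.0204). Slide 2 had 0.66, without a test. With the slide as a block the limma adjusted p of Slc25a12 was 0.00393. With scaling over all probes its change was 0.38 (limma adjusted p = 0.213) and did not pass. A dimmer Slc25a12 probe had a change of 0.07. Slc25a38, which carries glycine for haem synthesis, had a brightest probe at 10.51, 10.69, 11.04 and 11.07 in anti-miR-214 kidneys, against 10.77, 10.59, 10.73 and 10.39 in control kidneys. Those groups overlapped, with a change of 0.21 ± 0.15 (SE, limma adjusted p = 0.335). Its dimmest probe gave 7.87, 7.86, 7.96 and 8.24 in anti-miR-214 kidneys, against 7.35, 7.24, 7.65 and 7.62 in control kidneys. On this probe the groups were apart and it rose by 0.52 ± 0.14 (SE, limma adjusted p = 0.0214). It lost its call without anti-miR-214 replicate 4 or control antimiR replicate 1 or 2, with log2 changes of 0.43 to 0.58 and adjusted p of 0.0267 to 0.0671 over the 8 omissions. Slc25a15, the ornithine carrier of the urea cycle, had -0.48 ± 0.18 (SE, limma adjusted p = 0.0675), and Slc25a13, Slc25a18 and Slc25a44 had 0.07, 0.26 and 0.11, all short of the threshold.

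Of the vitamin, cofactor and metal carriers, 2 of 5 rose and 0 fell, beside 12.3% of all named genes called higher and 9.93% lower. Slc25a28 (mitoferrin 2), which brings iron into mitochondria, gave 11.29, 11.17, 11.33 and 11.44 in anti-miR-214 kidneys, against 10.96, 10.79, 11.04 and 10.76 in control kidneys. All anti-miR-214 kidneys were higher, with a change of 0.42 ± 0.12 (SE, limma adjusted p = 0.0252). It lost its call without anti-miR-214 replicate 3 or 4 or control antimiR replicate 2 or 4, with log2 changes of 0.38 to 0.47 and adjusted p of 0.0276 to 0.0739 over the 8 omissions. Slc25a39, needed for glutathione import, gave 11.14, 11.15, 11.22 and 11.66 in anti-miR-214 kidneys, against 10.58, 10.64, 10.88 and 11.04 in control kidneys. The groups were apart, with anti-miR-214 replicate 4 well above the other 7 arrays, and the change was 0.51 ± 0.16 (SE, limma adjusted p = 0.0357). It kept its call only without anti-miR-214 replicate 1 or 2 or control antimiR replicate 4, with log2 changes of 0.39 to 0.59 and adjusted p of 0.0305 to 0.0957 over the 8 omissions. On slide 1 alone Slc25a39 had 0.47 (limma adjusted p = 0.0459), and with the slide as a block its limma adjusted p was 0.0106. With scaling over all probes it had 0.42 (limma adjusted p = 0.101) and did not pass. Slc25a37, the mitoferrin 1 of erythroid cells, had a change of 0.23, while 2 of 5 tested erythroid markers fell and 0 rose, with sums of 3800 to 18600 in anti-miR-214 kidneys and 15700 to 19700 in control kidneys. Slc25a26, the S-adenosylmethionine carrier, and Slc25a32, a folate and flavin carrier, had 0.30 and -0.31, not past the threshold.

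Of the nucleotide and phosphate carriers, 3 of 11 fell and 1 rose, beside 9.93% of all named genes called lower and 12.3% higher. Slc25a3, the phosphate carrier that feeds ATP synthase, gave 12.44, 11.99, 12.00 and 12.18 in anti-miR-214 kidneys, against 12.51, 12.48, 12.81 and 12.80 in control kidneys. All anti-miR-214 kidneys were below all control kidneys, replicate 1 closely so, and the gene fell with a change of -0.50 ± 0.14 (SE, limma adjusted p = 0.0269). Slc25a3 lost its call without anti-miR-214 replicate 2 or 3 or control antimiR replicate 3 or 4, with log2 changes of -0.59 to -0.44 and adjusted p of 0.0138 to 0.0753 over the 8 omissions, and its second probe had a change of 0.01. Slc25a36, a carrier of pyrimidine nucleotides, gave 8.81, 8.52, 8.62 and 8.08 in anti-miR-214 kidneys, against 9.32, 9.20, 9.40 and 9.11 in control kidneys. The groups were well apart, with a change of -0.74 ± 0.16 (SE, limma adjusted p = 0.00838), 1.68-fold lower. Its dimmer probes had 0.12 and -0.17, with overlap. As the mean of its tested probes, Slc25a36 had a change of -0.265 (limma adjusted p = 0.112) and lost its call. Slc25a16, linked to coenzyme A in the matrix, gave 8.97, 9.08, 9.31 and 9.53 in anti-miR-214 kidneys, against 9.36, 9.70, 10.08 and 9.95 in control kidneys. Anti-miR-214 replicate 4, on slide 2, exceeded control replicate 1, on slide 1, so the groups overlapped. The change was -0.55 ± 0.18 (SE, limma adjusted p = 0.0446). Slc25a16 kept its call only without anti-miR-214 replicate 4 or control antimiR replicate 1, with log2 changes of -0.69 to -0.45 and adjusted p of 0.021 to 0.114 over the 8 omissions.

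Of the calcium-regulated ATP-Mg and phosphate carriers, Slc25a25 rose. It gave 8.31, 8.31, 8.47 and 8.77 in anti-miR-214 kidneys, against 7.86, 8.12, 8.12 and 7.93 in control kidneys. All anti-miR-214 kidneys were higher, with a change of 0.46 ± 0.14 (SE, limma adjusted p = 0.03). It kept its call only without anti-miR-214 replicate 1 or 2 or control antimiR replicate 3, with log2 changes of 0.36 to 0.51 and adjusted p of 0.0301 to 0.076 over the 8 omissions. Slc25a24 gave 7.35, 7.38, 7.32 and 7.03 in anti-miR-214 kidneys, against 7.54, 7.78, 7.39 and 7.76 in control kidneys on its brightest probe. The anti-miR-214 arrays were lower without overlap, with a change of -0.35 ± 0.13 (SE, limma adjusted p = 0.0789) that did not pass. Its dimmer probe gave 6.34, 6.38, 5.71 and 6.14 in anti-miR-214 kidneys, against 6.79, 7.05, 6.47 and 6.67 in control kidneys. That probe fell, with a change of -0.61 ± 0.18 (SE, limma adjusted p = 0.0285), and kept its call only without anti-miR-214 replicate 1 or 2 or control antimiR replicate 3, with log2 changes of -0.70 to -0.46 and adjusted p of 0.0253 to 0.0831 over the 8 omissions. Slc25a23, of the same group, had 0.36, short of the threshold. Whether these carriers differ from each other was not tested.

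The ADP/ATP exchangers did not pass. Slc25a5, the exchanger found in most tissues, gave 13.012, 12.894, 12.796 and 13.002 in anti-miR-214 kidneys, against 12.823, 13.281, 13.325 and 13.259 in control kidneys. Control replicate 1 lay among the anti-miR-214 arrays and apart from the other 3 controls, and the change was -0.25 ± 0.14 (SE, limma adjusted p = 0.2), which turned to 0.07 with scaling over the tested probes. Slc25a4, the heart and muscle form, gave 6.28, 6.16, 6.41 and 6.79 in anti-miR-214 kidneys, against 6.34, 6.20, 6.10 and 6.64 in control kidneys. The groups overlapped, with a change of 0.09 ± 0.17 (SE, limma adjusted p = 0.721), which turned to -0.21 with scaling over all probes. Slc25a42, a coenzyme A carrier, had 0.60, Slc25a33, a pyrimidine nucleotide carrier, 0.25 and the peroxisomal Slc25a17 -0.17, none past the threshold.

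Of the uncoupling-like and orphan carriers, 2 of 7 fell and 0 rose, beside 9.93% of all named genes called lower and 12.3% higher. Slc25a30, a relative of the uncoupling proteins also called kidney mitochondrial carrier protein 1, had the largest change of the 52 tested members. It gave 8.30, 7.93, 8.11 and 8.12 in anti-miR-214 kidneys, against 8.46, 9.05, 9.28 and 9.11 in control kidneys. The highest anti-miR-214 array, replicate 1, was below the lowest control array, also replicate 1, and the change was -0.86 ± 0.17 (SE, limma adjusted p = 0.00678), 1.81-fold lower. Slc25a53 gave 6.63, 6.62, 6.59 and 6.56 in anti-miR-214 kidneys, against 6.88, 7.06, 7.16 and 7.01 in control kidneys. Its groups were tight and apart, and it fell with a change of -0.43 ± 0.11 (SE, limma adjusted p = 0.0167). Slc25a30, Slc25a36 and Slc25a53 each passed whichever array was left out, the last with an adjusted p of up to 0.0496. Slc25a34 had the largest positive change, 0.79 ± 0.30 (SE, limma adjusted p = 0.077), without passing, and Slc25a47, Slc25a45, Slc25a35 and Slc25a14 had 0.56, 0.06, 0.05 and -0.03.

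Several genes thus had probes that did not move alike. Of the 17 members with more than 1 tested probe, 3 (17.6%) had a called probe beside a tested probe of opposite sign, namely Slc25a3, Slc25a36 and Slc25a11, the last through the dim probe that passed the filter by its control arrays. Among all 3769 named genes with several tested probes the share was 20.2%. The brightest probes of the 17 genes had a median change of 0.20 and their 24 other probes 0.04, beside 0.06 and -0.02 over all such genes. Counting any tested probe, 19 of 52 genes had at least 1 call, beside 3322 of 10734 named genes (30.9%) counted the same way. Of the 19, Slc25a24, Slc25a38 and Tomm40l owed the call to a dimmer probe, as did Slc25a11 and Slc25a20, whose dim probes passed the filter by their control arrays. Which transcript each probe reads was not analysed here.

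**Figure D4:**
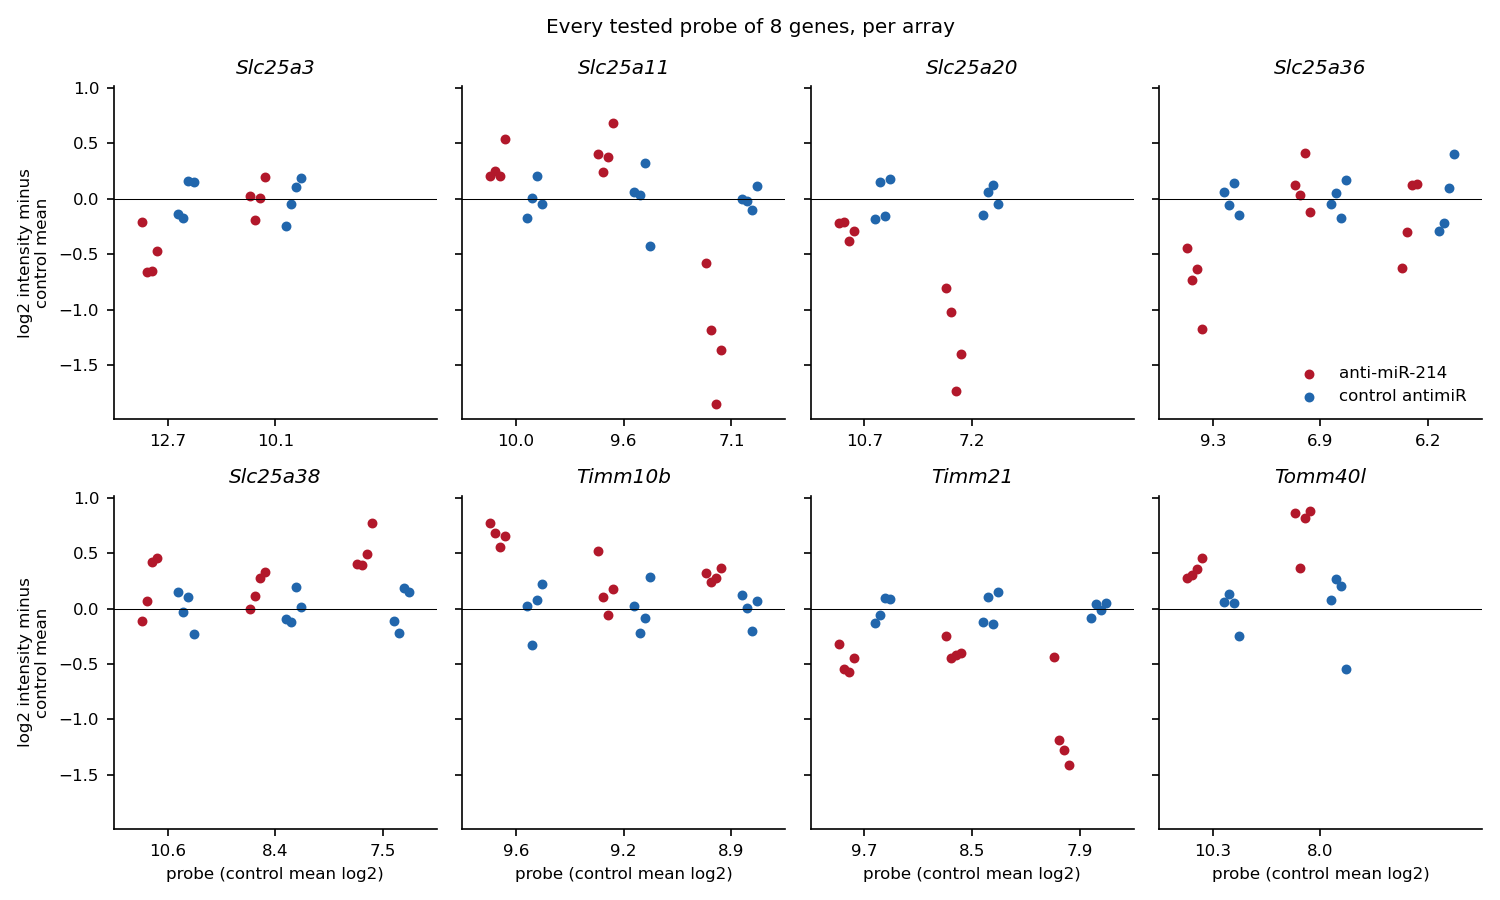
Log2 intensity minus the probe's control mean on each array (red anti-miR-214, blue control antimiR) for every tested probe of 8 genes, labelled by control mean. The 3 Timm21 probes all lie lower in anti-miR-214 kidneys, whereas in Slc25a11 the dimmest probe, which passed the filter by its control arrays, had -1.25 and the others, not past the threshold, had 0.30 and 0.43.

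The detection filter left 16 members untested, the carriers Slc25a2, Slc25a21, Slc25a22, Slc25a27, Slc25a29, Slc25a31, Slc25a40, Slc25a41, Slc25a43, Slc25a46, Slc25a48, Slc25a51 and Slc25a54 and the import genes Timm13, Timm22 and Timm8a2. Their 23 probes were detected on 0 of 8 arrays, so no change was measured for them. At the filter's edge, Slc25a47 and Timm23 were detected on 4 arrays, 2 in each group, with control means of 5.67 and 5.60. Just outside were the second Timm17b probe, detected on 2 arrays, and the second probes of Slc25a13 and Slc25a42, detected on 1 array each. Slc25a32 was detected on 2 anti-miR-214 and 4 control arrays and so also passed through the control group.

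Other mitochondrial genes were called in both directions. The fit's background was 12.3% of named genes higher and 9.93% lower, with a median change of 0.09. Of 19 tested genes outside the families, listed for import and for the folding, assembly and turnover of mitochondrial proteins, 5 rose and 1 fell, with a median change of 0.14. The genes that rose hold both kinds, and only Mipep and Gfer act in import as such. They were Timmdc1 (0.71), an assembly factor of complex I, Bcs1l (0.61), a chaperone of complex III, Clpp (0.59), a matrix protease, Mipep (0.51), which trims presequences, and Gfer (0.46), the oxidase of the intermembrane space relay, at limma adjusted p of 0.0114 to 0.0278. The one that fell was Oxa1l (-0.53, limma adjusted p = 0.0331), the inner membrane insertase. Of 9 other carriers and channels, 3 fell and 0 rose, with a median of -0.04. They were the outer membrane channel Vdac3 (-1.05), the calcium uniporter Mcu (-0.83) and the carrier homologue Mtch2 (-0.59), at limma adjusted p of 0.0026 to 0.021. The Mcu probe was dim, with means of 5.76 in anti-miR-214 and 6.59 in control kidneys. Whether it passed the detection filter through its control arrays was not examined. Of 12 regulators of mitochondrial gene expression, 1 rose, the helicase Twnk (0.52, limma adjusted p = 0.0431), and 1 fell, the transcription factor Tfam (-0.57, limma adjusted p = 0.0306), with a median of 0.24.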

How the data were processed

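The labels' protocols describe purified total RNA, a biotinylated cRNA copy and Illumina arrays, here 8 of them, 1 per kidney. The deposited main table held a non-normalized intensity and a detection p-value for each of 45281 probes and 8 arrays, per the file headers. Another deposited table gave the same arrays' intensity after processing by the authors, on a linear scale and with unknown background and normalization steps; it entered only as an alternative. Scanner, software and genome build are not given in the sources used here. There were 0 columns of other series.

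Groups came from the sample titles. Intensities were normalized with neqc of limma 3.58.1 in R 4.3.3, which infers negative controls through the detection p, with an offset of 16, quantile normalization and log2. Dim probes' changes are pulled towards 0 by the offset, and quantile normalization hides a shift shared by all genes. Probes with a detection p under 0.05 on at least 4 of 8 arrays were fitted with lmFit and eBayes, with group as covariate, and Benjamini-Hochberg adjustment ran over all 18601 such probes, at a threshold of 0.05. Arrays have no read depth, and their number limits the precision. The highest correlation between raw arrays was 0.991, so no array repeated another.

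Symbols came from the platform annotation, with 1 symbol for 34885 probes, several for 18, which stayed unnamed, and 10378 probes not listed. Values of every array are printed for members with at least 1 probe past the threshold and for Slc25a3, Slc25a4, Slc25a5, Tomm40, Timm23 and Timm17a. Members named from other lists are those past the threshold, apart from Ckm, Acta1, Adipoq and Plin1, which had no tested probe. The members and lists were chosen with earlier results of these data known. No set test and no p-value over the members alone was computed. Promoter and microRNA sequences are RefSeq's, of GRCm38.p6. Alternatives covered the offset, the scaling, the detection filter, the processed table, the slide, a replicate block, the probe that stands for a gene and omission of arrays.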

Additional observations from a re-analysis of the deposited data

Results flagged for a closer look

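In 9 of 118 groups of 4 arrays examined among the members' probes, 1 array stood apart from the other 3 by Dixon's 95% criterion, which chance alone meets in about 1 of 20 groups. Of these 9 values, 7 were of anti-miR-214 replicate 4, an array of slide 2. That array was the high one for Slc25a12 at 9.54 (the other 3 anti-miR-214 arrays lay between 8.82 and 8.87), Slc25a11 at 10.52 (10.18 to 10.23), Slc25a35 at 7.18 (6.31 to 6.43), Slc25a39 at 11.66 (11.14 to 11.22), Timm8b at 11.63 (11.42 to 11.45) and Tomm6 at 10.79 (10.36 to 10.44). It was the low one for Slc25a24, at 7.03 against 7.32 to 7.38 on the other 3. For Tomm40l's dimmer probe, anti-miR-214 replicate 2 was low at 8.36, with the others between 8.81 and 8.87. For Slc25a5, control antimiR replicate 1 was low at 12.82, with the other controls between 13.26 and 13.32. What set these values apart was not tested.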

How the results depend on the processing

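The counts of called genes depended on the settings, and the cause was not tested. Fits with arrays left out also had fewer arrays. Here 5 Slc25a genes rose and 5 fell, 2 Timm rose and 1 fell, 1 Tomm rose and 0 fell. Scaling to a common median gave 0 Slc25a genes higher and 8 lower, 1 Timm and 0 Tomm higher, medians of -0.05 (Slc25a), 0.145 (Timm) and -0.107 (Tomm), and 551 higher and 4509 lower among all tested probes, against 2195 and 2566 here. Scaling over the tested probes, chosen after seeing the data, gave 8 Slc25a genes higher and 3 lower, 6 Timm and 2 Tomm higher, a Timm median of 0.431 and 3455 probes higher. The offset of 50 gave 4 Timm and 2 Tomm genes higher, detection on 8 of 8 arrays 2 Tomm, no detection filter 2 Slc25a and 2 Tomm, the authors' processed values 3 Slc25a, the slide as a block 4 Timm, and the mean of a gene's probes 3 Slc25a and 2 Tomm. Over all tested probes, 26.5% were called with the offset of 50, 25.9% with detection on 8 of 8 arrays and 10.2% with no filter. The processed values gave 23.8% and the slide as a block 28.8%, beside 25.6% here. Slide 1 alone gave 2 Slc25a genes higher and 2 lower, 1 Timm higher and 0 lower, and 1075 probes higher and 1474 lower. On slide 2, without a test, the Tomm median was 0.544. With anti-miR-214 replicates 3 and 4 left out together, which an earlier analysis had found farthest from the controls, 0 Slc25a genes were higher and 1 lower, 1 Timm higher and 0 lower and 0 Tomm higher, with a Timm median of 0.163 and 437 probes higher and 962 lower. Leaving out each array in turn gave 0 to 5 Slc25a genes higher and 3 to 6 lower, 1 to 4 Timm higher, and 1222 to 2196 probes higher. With the replicate block, 1 Timm gene was higher and 7 Slc25a genes were, at 24.7% of all tested probes called. The labels do not say whether the numbers pair the arrays. Same-numbered arrays' deviations correlated at 0.015, 0.063, 0.051 and 0.204, which cannot settle it with so few arrays. Over 31 probes and the alternatives with a test, 438 of 565 comparisons kept direction and side of the threshold, 111 lost the threshold, 9 passed it and 7 turned sign without passing in either fit. The 7 were Slc25a4 (-0.21 with median scaling, -0.10 without anti-miR-214 replicates 3 and 4, -0.04 without anti-miR-214 replicate 4), Tomm40 (-0.13 with median scaling), Slc25a5 (0.07 with scaling over tested probes), Slc25a38 (-0.02 without anti-miR-214 replicates 3 and 4) and Slc25a11 (-0.17 as the mean of its probes). On slide 2, without a test, 30 of 31 kept direction and Timm23 turned to -0.19. Dim probes near background limit what could be measured.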

Other observations

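Markers of the remaining tissues that whole kidney can hold were also read, beside 12.3% of all named genes called higher and 9.93% lower. Of 8 tested markers of the thick limb and distal tubule 1 fell, Tmem52b (-1.08, limma adjusted p = 0.0428), and 0 rose, with summed intensities of 23800 to 35100 in anti-miR-214 kidneys and 27400 to 33300 in control kidneys. Of 11 skeletal muscle markers, 8 had no tested probe, Ckm and Acta1 among them, and of the other 3 the oxygen-binding Mb rose (0.45, limma adjusted p = 0.022), with sums of 211 to 235 in anti-miR-214 kidneys and 161 to 191 in control kidneys. The Mb probe was dim, with means of 6.26 in anti-miR-214 and 5.81 in control kidneys. Of 8 adipose markers 2 were tested and 0 passed, with Adipoq and Plin1 among those without a tested probe.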
